A study of Mus musculus with 8 samples.

Results

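The Hox genes were taken as all rows of the deposited count table whose symbol is Hox followed by a cluster letter from a to d and a number, which gave 39 of the 26667 genes counted. They comprised 11 genes of the Hoxa cluster on chromosome 6 (minus strand), 10 of the Hoxb cluster on chromosome 11 (plus strand, 96194316 to 96368254), 9 of the Hoxc cluster on chromosome 15 (plus strand, 102921131 to 103036856) and 9 of the Hoxd cluster on chromosome 2 (plus strand, 74668225 to 74765142), with positions from RefSeq on GRCm38.p6. No measured value entered this rule, which was set with earlier results of these data known.

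The study asked how loss of Epas1, which encodes HIF-2α, alters undifferentiated pleomorphic sarcoma (UPS), a soft tissue tumour without a clear line of differentiation. RNA-seq was performed on 8 hind limb tumours, 4 from KP mice (KP 5, KP 6, KP 7 and KP 8) and 4 from KPH2 mice (KPH2 1, KPH2 2, KPH2 3 and KPH2 4), each group on a mixed 129/C57BL/6 background. KP mice carry Trp53 fl/fl with a further allele that is not reported here, and KPH2 mice carry the same alleles plus Epas1 fl/fl, so that Trp53 loss is shared by both groups and Epas1 differs. Tumours were started in adult mice by an adenovirus expressing Cre (Ad-Cre) in the gastrocnemius muscle of the calf, and Cre therefore acts in infected cells. Which cell types of the tumours lost Epas1 is not given in the sources used here. The age of each mouse and whether each tumour came from a different mouse are not given in the sources used here, so the p-values measure the spread between these tumours. Over the deposited files KPH2 1 is present in the counts and in an 8-tumour table of normalized values, and absent from a 7-tumour table, and the study's methods leave out 1 knockout tumour as a technical outlier, although its results text gives other group sizes than its methods. KPH2 1 is therefore shown apart, the main comparison is between the 4 KP tumours and KPH2 2, 3 and 4, and a further comparison adds KPH2 1.

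Hox genes encode homeodomain transcription factors that give cells their position along the body and limb axes. Within each cluster the genes lie in the order of their paralogue numbers, and low numbers act towards the head while high numbers act towards the tail and, in the limb, towards the digits. Connective tissue cells of adult organs keep much of the Hox pattern of the place where they arose, and the proteins bind DNA together with cofactors of the TALE class such as Pbx and Meis.

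The stretches of 250 bases before the transcription start are given here for 8 Hox genes of the Hoxa and Hoxd clusters, on which the comparison of KP with KPH2 tumours turns. The sequences come from RefSeq on GRCm38.p6, where 22 of the 39 members were matched with 24 starts. Capitals mark ACGTG or GCGTG on either strand, the core letters that HIF proteins bind, with overlapping matches on opposite strands counted separately. The Hoxa cluster genes shown are Hoxa6, the 1 Hox gene called different between the groups by edgeR, with Hoxa5, Hoxa9, Hoxa10 (which has 2 starts) and Hoxa11 around it.
Hoxa5, chr6:52204588-52204837, minus strand: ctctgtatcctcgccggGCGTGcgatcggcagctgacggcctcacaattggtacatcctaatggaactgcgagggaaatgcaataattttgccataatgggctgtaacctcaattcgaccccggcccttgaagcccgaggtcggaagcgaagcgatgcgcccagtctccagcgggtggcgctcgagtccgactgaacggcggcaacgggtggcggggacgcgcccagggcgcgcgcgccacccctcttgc
Hoxa6, chr6:52208673-52208922, minus strand: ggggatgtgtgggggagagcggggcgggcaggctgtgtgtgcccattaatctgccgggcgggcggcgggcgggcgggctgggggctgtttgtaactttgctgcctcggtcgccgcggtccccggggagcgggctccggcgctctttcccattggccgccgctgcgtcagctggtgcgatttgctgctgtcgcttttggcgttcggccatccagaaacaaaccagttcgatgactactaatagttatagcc
Hoxa9, chr6:52227371-52227620, minus strand: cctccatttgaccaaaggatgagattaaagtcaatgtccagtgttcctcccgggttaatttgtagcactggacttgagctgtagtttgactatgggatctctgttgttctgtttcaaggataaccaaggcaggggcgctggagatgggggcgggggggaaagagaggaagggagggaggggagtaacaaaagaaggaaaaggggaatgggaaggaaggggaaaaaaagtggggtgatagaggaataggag
Hoxa10, chr6:52234940-52235189, minus strand: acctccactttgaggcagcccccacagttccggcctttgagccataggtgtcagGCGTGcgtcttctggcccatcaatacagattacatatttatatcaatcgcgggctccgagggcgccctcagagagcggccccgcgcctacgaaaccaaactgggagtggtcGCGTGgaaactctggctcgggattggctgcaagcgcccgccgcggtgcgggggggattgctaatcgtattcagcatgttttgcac
Hoxa10, chr6:52240855-52241104, minus strand: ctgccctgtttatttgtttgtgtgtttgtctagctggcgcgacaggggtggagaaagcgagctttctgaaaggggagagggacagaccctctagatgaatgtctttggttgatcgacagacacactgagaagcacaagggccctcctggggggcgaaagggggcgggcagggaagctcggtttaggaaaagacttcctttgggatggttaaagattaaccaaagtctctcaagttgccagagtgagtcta
Hoxa11, chr6:52245811-52246060, minus strand: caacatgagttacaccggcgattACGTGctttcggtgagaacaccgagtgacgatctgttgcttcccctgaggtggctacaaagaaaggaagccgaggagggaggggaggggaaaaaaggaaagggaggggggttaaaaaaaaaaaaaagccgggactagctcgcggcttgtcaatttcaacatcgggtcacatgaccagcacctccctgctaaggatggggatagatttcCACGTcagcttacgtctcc
The Hoxd cluster genes shown are the ones with enough counts to be tested.
Hoxd4, chr2:74721728-74721977, plus strand: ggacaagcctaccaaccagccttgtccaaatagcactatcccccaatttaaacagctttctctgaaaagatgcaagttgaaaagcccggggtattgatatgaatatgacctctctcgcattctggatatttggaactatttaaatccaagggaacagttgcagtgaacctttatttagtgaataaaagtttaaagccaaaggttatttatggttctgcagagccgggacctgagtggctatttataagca
Hoxd8, chr2:74704365-74704614, plus strand: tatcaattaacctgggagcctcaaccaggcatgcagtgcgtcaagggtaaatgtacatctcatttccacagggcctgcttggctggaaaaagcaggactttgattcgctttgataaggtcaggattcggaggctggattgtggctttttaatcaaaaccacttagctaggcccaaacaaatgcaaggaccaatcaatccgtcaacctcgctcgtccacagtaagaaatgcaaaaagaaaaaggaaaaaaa
Hoxd9, chr2:74697513-74697762, plus strand: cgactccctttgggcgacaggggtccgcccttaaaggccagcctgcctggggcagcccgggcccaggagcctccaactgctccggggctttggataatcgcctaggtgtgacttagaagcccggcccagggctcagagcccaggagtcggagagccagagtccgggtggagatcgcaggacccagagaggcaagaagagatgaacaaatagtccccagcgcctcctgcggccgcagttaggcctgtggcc
In these windows Hoxa11 held ACGTG at 227 and at 19 bases before the start and Hoxa5 held GCGTG at 233 bases before it. One of the windows of Hoxa10 held GCGTG at 196 and at 85 bases before the start, whereas its other window and those of Hoxa6, Hoxa9, Hoxd4, Hoxd8 and Hoxd9 held neither set of letters. Over the 24 Hox promoters 10 held at least 1 core (41.7%), beside 38.6% of 32851 RefSeq promoters of the same length. A TATAAA on either strand was found in 4 of the 24 (12.4% of all promoters). Hoxd4 and the first of Hoxa10 were among them, both with the match on the opposite strand, read as TTTATA in the letters shown. CCAAT on either strand was found in 14 of the 24 (33.8% of all promoters), including Hoxa5, Hoxa6, the first of Hoxa10, Hoxd4 and Hoxd8. The letters TGATTNAT, bound by Hox and Pbx proteins together, were found in 2 of the 24 promoters and in 2.82% of all, and in none of those shown. The median GC content was 58.6% for the Hox promoters and 52.4% for all, and among those shown it ran from 40.4% for Hoxd4 to 65.2% for Hoxa6 and Hoxd9. A match describes letters only.

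Libraries held between 6463221 and 13155510 counts. Levels of single genes are given as CPM, the counts scaled to a common library size after TMM normalization. Epas1 ran from 59.6 to 85.5 CPM in KP tumours and from 37.8 to 54.2 CPM in KPH2 2, 3 and 4, with 32.0 CPM in KPH2 1. The groups did not overlap, although the fitted log2 fold change of −0.81 had an adjusted p of 0.0742 (edgeR). The ribosomal RNA gene Rn45s took 1.08% to 2.79% of the counts in KP and 3.58% to 9.83% in all 4 KPH2 tumours. All 20 of the skeletal muscle markers examined had higher fitted values in KPH2 2, 3 and 4, where their summed level ran from 4264 to 19310 CPM against 1791 to 3332 CPM in KP tumours, and Neb and Eno3 passed an adjusted p of 0.05 (edgeR). KPH2 1 had 1464 CPM of these markers, fewer than any other tumour. Because whole tumours were sequenced, fewer cells of a type and less RNA per cell cannot be told apart for any gene below. The mesenchymal gene Vim was at 1329 to 2948 CPM in the 8 tumours. Of the 12 mesenchymal markers 10 had lower fitted values in KPH2 2, 3 and 4. The keratins Krt5 and Krt14 had no count in any tumour. Krt8 and Krt18, of the same epithelial list, passed an adjusted p of 0.05 as higher in those KPH2 tumours (edgeR).

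Hox genes were read in all 8 tumours, and those of the Hoxc cluster took the larger part. Of the 39 genes 22 had counts in every tumour, 13 stayed under 1 CPM in all 8, and Hoxb1 and Hoxd12 had no count in any tumour, which allows a level of up to 0.224 to 0.437 CPM at these depths (3 counts per library, counting error only). In KP tumours the order of the levels per length, in CPM per kb of exon, was Hoxc6 (11.6 ± 2.79), Hoxc10 (10.02 ± 3.13), Hoxc8 (5.84 ± 3.54), Hoxd8 (4.31 ± 1.95), Hoxa10 (4.17 ± 0.628) and Hoxc9 (3.70 ± 0.825), as means ± SD with n = 4. In KPH2 2, 3 and 4 it was Hoxc10 (12.1 ± 4.07), Hoxc6 (6.84 ± 1.62), Hoxa10 (6.80 ± 1.03), Hoxc9 (4.99 ± 1.45), Hoxa11 (4.20 ± 2.07) and Hoxc8 (3.62 ± 1.13), as means ± SD with n = 3. Neighbours in these orders differed by less than the SD of either gene, other than Hoxc10 and Hoxc8 in KP tumours and, in KPH2 2, 3 and 4, Hoxc10 and Hoxc6, and Hoxa10 and Hoxc9, which differed by more than both SDs. Some genes of the tail end were near 0: Hoxa13, Hoxb13, Hoxd11 and Hoxd13 had 5, 1, 1 and 4 counts in all 8 tumours together. Hoxa11 and Hoxc11, of the same paralogue number as Hoxd11, had 355 and 374 counts, and Hoxc13 had 180. Hoxc13 was the only gene of paralogue number 12 or 13 that passed the low-count filter.

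**Figure D1:**
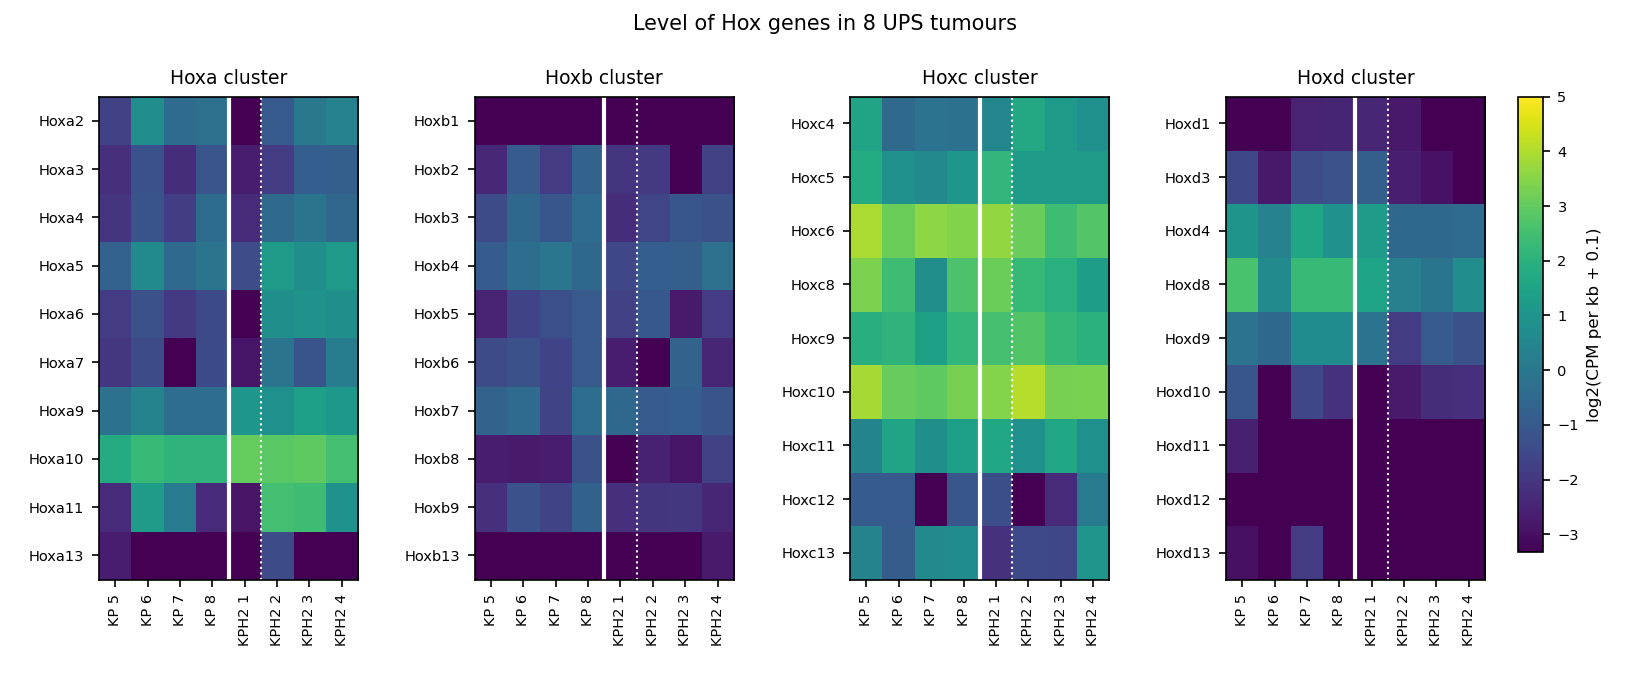
Heat map of the level of Hox genes, with tumours in columns (KP, then KPH2 1 between the white lines, then KPH2 2, 3 and 4), genes in rows by cluster and paralogue number, and colour as log2 of CPM per kb plus 0.1. Hoxc6, Hoxc8, Hoxc9, Hoxc10 and Hoxa10 are the brightest rows, Hoxd8 is bright in KP tumours other than KP 6, and Hoxb1 and Hoxd12 are at the floor in every tumour.

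The filter on low counts (a CPM of about 0.993 in at least as many tumours as the smaller group holds) kept 20 Hox genes for the main comparison, 7 of Hoxa, 2 of Hoxb, 8 of Hoxc and 3 of Hoxd, and the other 19 never exceeded 2.14 CPM in the 7 tumours. Hoxa6 passed through KPH2 tumours alone and Hoxd9 through KP tumours alone. In this comparison 1 of the 20, Hoxa6, passed an adjusted p of 0.05, where 1.96% of all 14867 tested genes did (edgeR quasi-likelihood test, Benjamini-Hochberg values over all genes). At an unadjusted p under 0.05 there were 9 of 20, where the background was 17.8%. The 5 higher in KPH2 tumours (8.5% of all genes) were all of the Hoxa cluster, and the 4 lower (9.26%) were Hoxc6 and the 3 tested Hoxd genes. Groups did not overlap for 7 of the 20 (16.8% of all genes), with Hoxa5, Hoxa6, Hoxa9 and Hoxa10 higher (9.01%) and Hoxc6, Hoxd4 and Hoxd9 lower (7.83%). The call is Hoxa6, and the other counts include Hoxa6 and Hoxd9. For both genes the difference is tied to the group through which they passed the filter. The median log2 fold change was 1.23 for the 7 Hoxa genes, all of them positive, −1.87 for the 3 Hoxd genes, all of them negative, 0.07 for the 8 Hoxc genes and −0.42 for the 2 Hoxb genes, beside 0.10 for the 20 together and −0.02 for all tested genes.

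**Figure D2:**
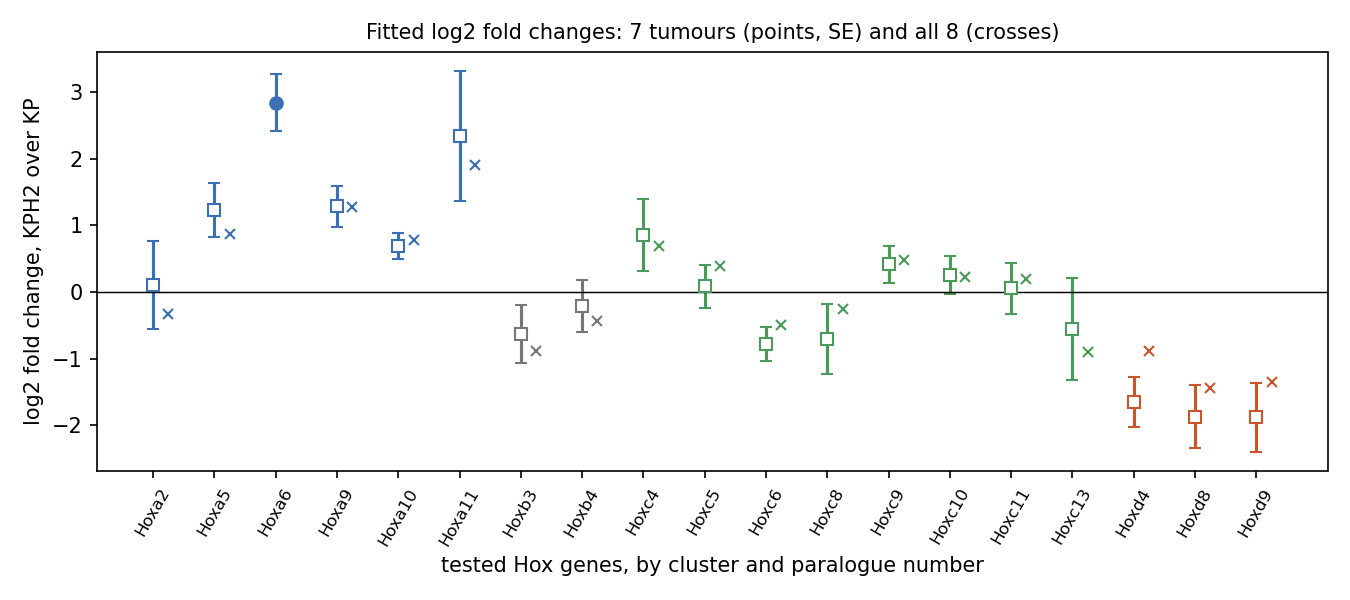
Fitted log2 fold change of KPH2 over KP for tested Hox genes, ordered by cluster and paralogue number and coloured by cluster, with points and SE bars for the 7 tumours (filled where the adjusted p is under 0.05) and crosses for all 8. The Hoxa points lie above 0 and the Hoxd points below it, and with all 8 tumours Hoxa2 crosses to the negative side and Hoxa6 has no value.

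Hoxa6, a gene of the axial skeleton in the thoracic region, was called higher in KPH2 2, 3 and 4. Levels of the KP tumours are given in the order of their numbers throughout. Hoxa6 had 0.149, 0.279, 0.146 and 0.229 CPM in KP 5, 6, 7 and 8, and 1.46, 1.61 and 1.46 CPM in KPH2 2, 3 and 4. The 3 KPH2 values lay close together and far above all KP values, and KPH2 1 had no count. In counts this was 8 in the 4 KP tumours together and 45 in the 3 KPH2 tumours, a depth-scaled ratio of 7.64 (exact 95% interval 3.57 to 18.8, counting error only). The fitted log2 fold change was 2.84 (SE 0.43, adjusted p = 0.0229, edgeR). Because the gene passed the low-count filter through the KPH2 tumours alone, this value is tied to the group where it was high, and without the filter the adjusted p was 0.0268 (edgeR). Over 16 alternatives the adjusted p ran from 0.00701 with DESeq2 to 0.371 with the muscle marker score as a covariate, where the log2 fold change was 2.81, and it was 0.0562 without KP 7, 0.0884 without KPH2 2, 0.068 without KPH2 3 and 0.0604 without KPH2 4. With KPH2 1 added the gene did not pass the filter of edgeR, and DESeq2 gave 2.49 with an adjusted p of 0.187.

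Hoxa9, which acts in limb and lumbar patterning and in blood progenitors, and Hoxa10, a gene of the lumbar spine and the proximal limb, were higher in each KPH2 tumour with KPH2 1 included. The level of Hoxa9 was 2.54, 3.91, 2.19 and 2.29 CPM in the KP tumours, 5.48, 8.03 and 6.64 CPM in KPH2 2, 3 and 4, and 6.35 CPM in KPH2 1. Its log2 fold change was 1.29 (SE 0.31, adjusted p = 0.0742, edgeR) for 7 tumours and 1.28 (adjusted p = 0.125, edgeR) for all 8, while DESeq2 gave adjusted p-values of 0.00847 and 0.00308. The level of Hoxa10 was 10.7, 15.5, 13.0 and 13.2 CPM in the KP tumours, 22.8, 23.7 and 17.7 CPM in KPH2 2, 3 and 4, and 25.7 CPM in KPH2 1, the highest of all. Its log2 fold change was 0.69 (SE 0.20, adjusted p = 0.119, edgeR; 0.05002, DESeq2), and 0.78 with KPH2 1 (adjusted p = 0.150, edgeR; 0.0162, DESeq2). An exact 2-sided permutation test of the mean log2 CPM gave p = 0.0286 for both genes with 7 tumours and with 8, the smallest value either number of tumours allows. Groups that do not overlap bring this p to or near its smallest value, so it adds nothing to their separation. With 7 tumours the same test gave 0.0286 for Hoxa6 and Hoxd4, and 0.0571 for Hoxa5, Hoxc6 and Hoxd9.

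Hoxa5, which acts in the lung and the cervical and thoracic skeleton, was at 0.971, 2.79, 1.17 and 1.53 CPM in the KP tumours and at 4.20, 3.11 and 4.05 CPM in KPH2 2, 3 and 4. Even the lowest of these KPH2 tumours was above KP 6, the highest KP tumour, and KPH2 1 at 0.548 CPM was below them all. The log2 fold change was 1.23 (SE 0.41, adjusted p = 0.169, edgeR). Hoxa7, its neighbour in the cluster beyond Hoxa6, was not tested, with 0 to 0.559 CPM in KP tumours, 0.703 to 2.14 CPM in KPH2 2, 3 and 4 and 0.0784 CPM in KPH2 1. It is named because it was the only untested Hox gene whose groups did not overlap. The gap was small, between KP 6 with 4 counts (0.559 CPM) and KPH2 3 with 7 counts (0.703 CPM).

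Hoxa11, a gene of the lower leg and forearm segment and of the uterus, had the widest spread of the tested Hox genes. It stood at 0.224, 5.31, 2.19 and 0.229 CPM in KP 5, 6, 7 and 8, at 12.8, 11.8 and 4.16 CPM in KPH2 2, 3 and 4, and at 0.0784 CPM in KPH2 1. KPH2 4 was below KP 6, so the groups overlapped, and the highest of the 7 tumours had 57.1 times the level of the lowest. The log2 fold change was 2.34 (SE 0.98, adjusted p = 0.266, edgeR). The antisense RNA Hoxa11os followed the same order in KPH2 tumours, with 0.0747, 3.49, 0.437 and 0 CPM in the KP tumours, 8.41, 8.23 and 3.04 CPM in KPH2 2, 3 and 4, and 0.235 CPM in KPH2 1 (log2 fold change 2.84, SE 1.18, adjusted p = 0.260, edgeR). The strand setting of the counting is not given in the sources used here, so reads of this pair cannot be told apart with certainty. Hoxa2, which acts in the hindbrain, had a log2 fold change of 0.11 (SE 0.65, adjusted p = 0.956, edgeR) and no count in KPH2 1.

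**Figure D3:**
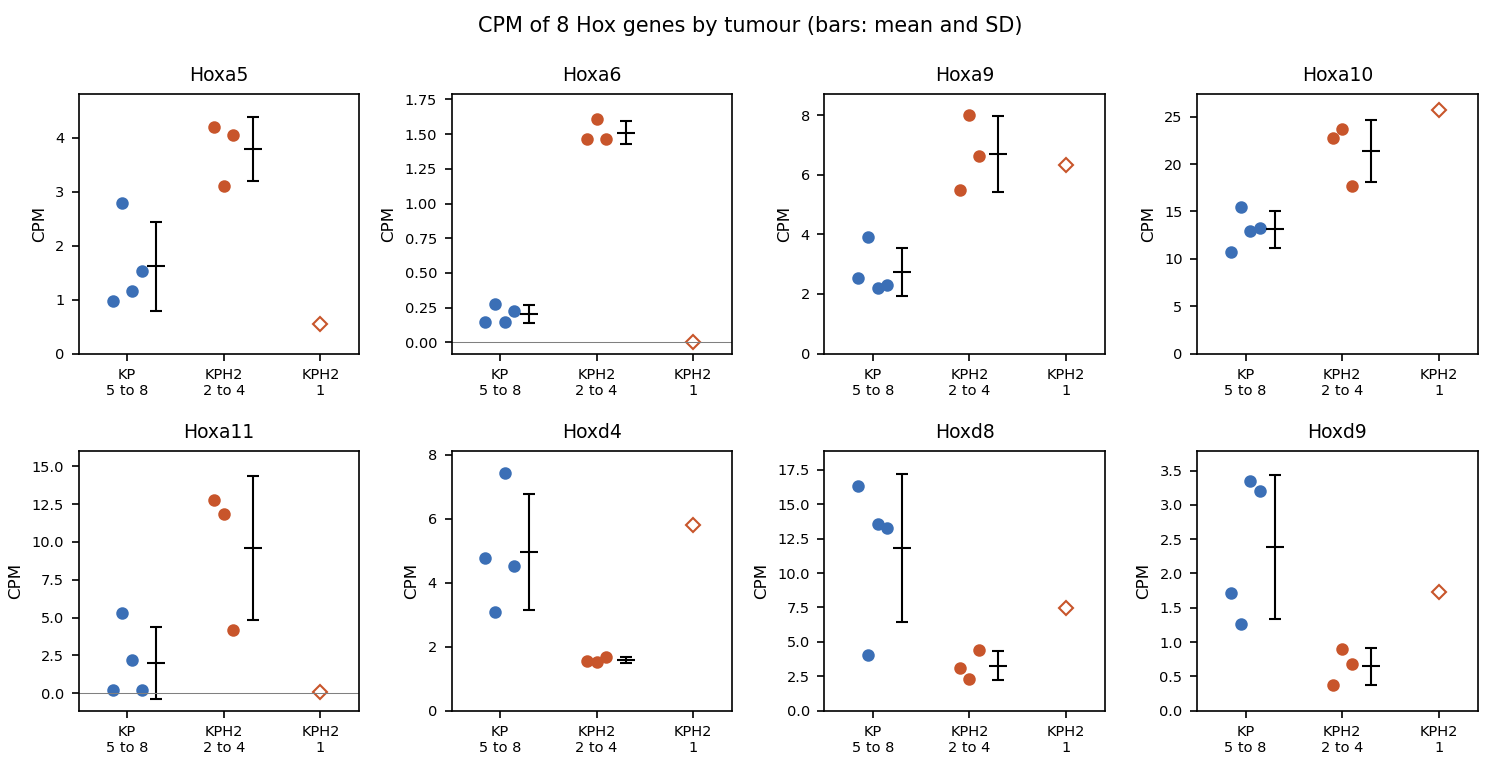
CPM of 5 Hoxa and 3 Hoxd genes in each tumour, with filled circles for KP and for KPH2 2, 3 and 4, an open diamond for KPH2 1, and bars for the mean and SD of the filled circles beside them. KPH2 1 lies with the KPH2 tumours for Hoxa9 and Hoxa10, below all others for Hoxa5, Hoxa6 and Hoxa11, and within the KP range for the Hoxd genes.

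The 3 tested Hoxd genes had negative fold changes in KPH2 2, 3 and 4, and none passed the adjusted threshold in edgeR (all 3 had an unadjusted p under 0.05). Hoxd8, which acts in the trunk and is the Hoxd gene with the highest level per length, was at 16.4, 4.05, 13.6 and 13.3 CPM in the KP tumours and at 3.11, 2.31 and 4.39 CPM in KPH2 2, 3 and 4. KP 6 lay among the KPH2 tumours and the other KP tumours far above them, and KPH2 1 was between, at 7.44 CPM. The log2 fold change was −1.87 (SE 0.48, adjusted p = 0.0879, edgeR), and without KP 6 it was −2.15 with an adjusted p of 0.0388 (edgeR). Hoxd4, which patterns the hindbrain border and the neck, stood at 4.78, 3.07, 7.44 and 4.51 CPM in KP tumours and at 1.55, 1.51 and 1.69 CPM in KPH2 2, 3 and 4. These KPH2 values were nearly equal and each was below all KP values, whereas KPH2 1 at 5.80 CPM was above 3 of the 4 KP tumours. The log2 fold change was −1.65 (SE 0.37, adjusted p = 0.0645, edgeR), and it was −0.88 with all 8 tumours (adjusted p = 0.461, edgeR).

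Hoxd9, which acts in the proximal limb and its girdle, was at 1.72, 1.26, 3.35 and 3.21 CPM in the KP tumours, at 0.366, 0.903 and 0.675 CPM in KPH2 2, 3 and 4, and at 1.72 CPM in KPH2 1. The log2 fold change was −1.88 (SE 0.52, adjusted p = 0.111, edgeR). Because Hoxd9 passed the low-count filter through the KP tumours alone, the difference and the lack of overlap are tied to the group where it was high, and without the filter the adjusted p was 0.129 (edgeR). DESeq2 over the 7 tumours gave adjusted p-values of 0.00311, 0.00506 and 0.0421 for Hoxd8, Hoxd4 and Hoxd9. With Hoxa6 and Hoxa9 these made 5 calls among the 37 Hox genes with a DESeq2 p-value, where DESeq2 called 5.4% of all genes. Among the untested members Hoxd3, which acts in the neck, had 0.747, 0.140, 0.875 and 0.993 CPM in KP tumours, 0.183, 0.10 and 0 CPM in KPH2 2, 3 and 4, and 1.41 CPM in KPH2 1. KP 6 was again the KP tumour closest to the KPH2 tumours. Hoxd1, Hoxd10, Hoxd11 and Hoxd13 never exceeded 0.673 CPM.

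The Hoxc cluster held 3 of the 5 genes with the highest level per length in KP tumours and in KPH2 2, 3 and 4, and none of its 8 tested genes passed the adjusted threshold (edgeR, with 1 at an unadjusted p under 0.05). Hoxc10, a gene of the hind limb and of lumbar motor neurons, had 27.7, 15.8, 14.4 and 18.6 CPM in the KP tumours, 32.1, 18.4 and 18.9 CPM in KPH2 2, 3 and 4 and 20.8 CPM in KPH2 1. KP 5 and KPH2 2 were the highest of their groups and the other tumours overlapped (log2 fold change 0.26, SE 0.29, adjusted p = 0.697, edgeR). Hoxc6, a gene of the thoracic region, was at 24.2, 13.7, 18.7 and 16.9 CPM in KP tumours, 13.4, 8.33 and 10.7 CPM in KPH2 2, 3 and 4, and 19.8 CPM in KPH2 1. The groups did not overlap without KPH2 1, by the small gap between KP 6 and KPH2 2, and the log2 fold change was −0.78 (SE 0.25, adjusted p = 0.160, edgeR). Hoxc8, which sets the identity of brachial motor neurons and of the thoracic skeleton, was at 19.1, 9.78, 3.06 and 11.7 CPM in KP tumours, 8.68, 7.13 and 4.50 CPM in KPH2 2, 3 and 4 and 16.1 CPM in KPH2 1. The KP tumours spanned the whole range of the others (log2 fold change −0.71, SE 0.53, adjusted p = 0.538, edgeR).

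Among the other tested Hoxc genes, Hoxc4, Hoxc5, Hoxc9, Hoxc11 and Hoxc13 had log2 fold changes from −0.55 to 0.85, and their adjusted p-values ran from 0.466 to 0.961 (edgeR). Hoxc9, a gene of the thoracic level, stood at 6.12 to 10.5 CPM in KP tumours and at 9.11 to 15.7 CPM in KPH2 2, 3 and 4, with 13.6 CPM in KPH2 1. Hoxc5, a gene of the lower neck, stood at 4.08 to 9.94 CPM and at 6.52 to 6.86 CPM in the same groups, and at 12.6 CPM in KPH2 1, the highest tumour. Hoxc13, which acts in hair follicles and nails, had 1.12 to 3.74 CPM in KP tumours, 0.602 and 0.640 CPM in KPH2 3 and KPH2 2, and 4.72 CPM in KPH2 4. KPH2 4 was thus the highest of all tumours and KPH2 1, with 0.313 CPM, the lowest. The long noncoding RNA Hotair, made from the Hoxc cluster and known for binding chromatin regulators, was at 1.57 to 7.11 CPM in KP tumours and 2.29 to 7.53 CPM in KPH2 2, 3 and 4, and highest in KPH2 1, at 9.95 CPM (log2 fold change 0.17, SE 0.57, adjusted p = 0.916, edgeR).

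Hoxb genes were low in every tumour. Hoxb4, known for its role in blood stem cells, had 1.12, 1.82, 2.19 and 1.53 CPM in KP tumours, 1.19, 1.20 and 1.91 CPM in KPH2 2, 3 and 4, and 0.627 CPM in KPH2 1. Hoxb3, a hindbrain gene, had 0.971, 2.10, 1.31 and 2.29 CPM in KP tumours, 0.823, 1.30 and 1.12 CPM in KPH2 2, 3 and 4 and 0.392 CPM in KPH2 1. Both genes were lowest in KPH2 1, and their groups overlapped (log2 fold changes −0.21 and −0.63, SE 0.39 and 0.43, adjusted p = 0.837 and 0.502, edgeR). Hoxb7, which acts in the trunk and was not tested, had 0.292 to 0.917 CPM in KP tumours and 0.450 to 0.602 CPM in KPH2 2, 3 and 4, with 0.784 CPM in KPH2 1. The 7 other Hoxb genes never exceeded 1.30 CPM.

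The levels of the genes were summed over all Hox genes and over each cluster. All 39 genes summed to 124 ± 17.3 CPM in KP tumours (SD, n = 4), to 131 ± 16.8 CPM in KPH2 2, 3 and 4 (SD, n = 3), and to 144.6 CPM in KPH2 1. The Hoxa cluster summed to 16.4, 34.0, 20.7 and 23.1 CPM in KP tumours, 52.7, 55.0 and 42.1 CPM in KPH2 2, 3 and 4 and 33.1 CPM in KPH2 1. The Hoxd cluster summed to 24.4, 8.52, 26.2 and 22.4 CPM in KP tumours, 5.39, 5.02 and 6.97 CPM in KPH2 2, 3 and 4 and 16.5 CPM in KPH2 1. Neither cluster overlapped between the groups of the main comparison (16.8% of all tested genes did not), and KPH2 1 lay within the KP range for both. The Hoxc sum was 73.3 ± 20.2 CPM in KP (SD, n = 4) and 70.7 ± 14.3 CPM in KPH2 2, 3 and 4 (SD, n = 3), and the Hoxb sum 6.46 ± 2.19 and 4.57 ± 0.547 CPM. As a share of the summed Hox level per length, Hoxa stood at 16.1% in KP and 34.0% in KPH2 2, 3 and 4, Hoxd at 13.7% and 3.83%, Hoxc at 65.0% and 58.7% and Hoxb at 5.19% and 3.50% (means of the tumours). In KPH2 1 the shares were 16.3% for Hoxa, 9.71% for Hoxd, 71.7% for Hoxc and 2.29% for Hoxb, and among the KP tumours Hoxa ran from 8.41% to 25.6% and Hoxd from 6.31% to 20.8%. These shares do not depend on how the libraries were scaled.

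**Figure D4:**
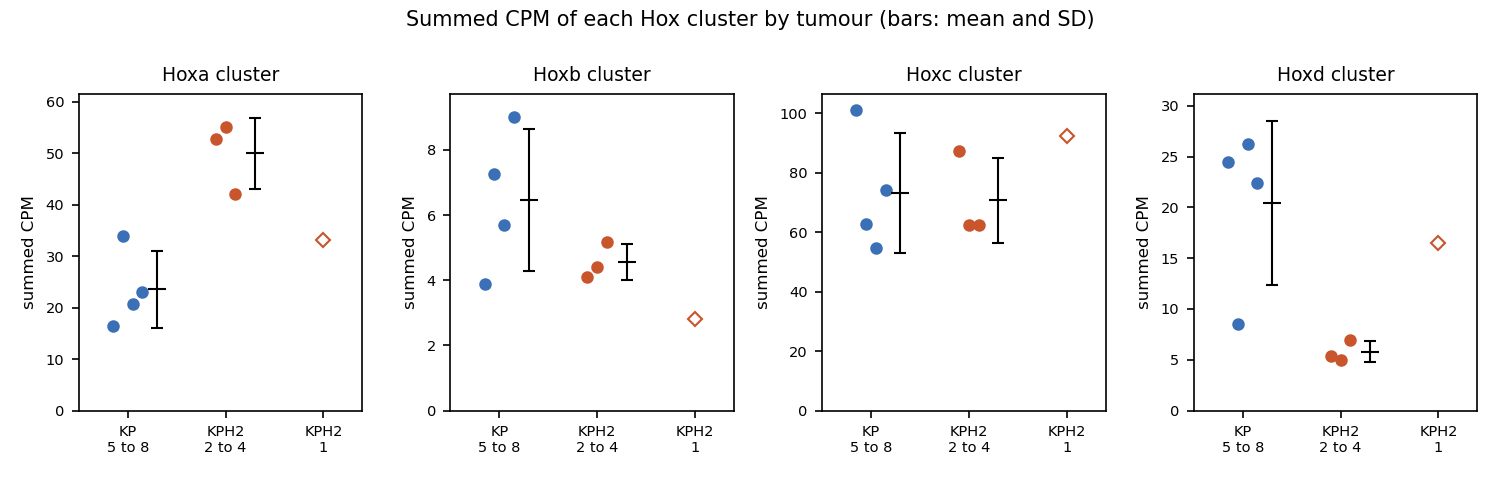
Summed CPM of the genes of each Hox cluster in each tumour, with filled circles for KP and for KPH2 2, 3 and 4, an open diamond for KPH2 1, and bars for mean and SD of the filled circles. The Hoxa sums of KPH2 2, 3 and 4 lie above all KP sums (42.1 CPM or more against 34.0 CPM or less), their Hoxd sums lie below (6.97 CPM or less against 8.52 CPM or more), and the Hoxb and Hoxc sums overlap.

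Paralogues, the genes of equal number that arose by duplication of an ancestral cluster, were summed in each tumour. Paralogue group 8 was 10.3 ± 4.57 CPM per kb in KP (SD, n = 4) and 4.92 ± 0.838 CPM per kb in KPH2 2, 3 and 4 (SD, n = 3), and group 5 was 3.25 ± 0.699 and 4.53 ± 0.464 CPM per kb. These were the 2 of 13 paralogue groups whose tumours did not overlap, a share near the 16.8% of all tested genes, and group 5 was separated by the small gap between 4.00 and 4.05 CPM per kb. Group 4 summed to 4.17 ± 1.04 and 4.18 ± 0.626 CPM per kb in the same groups.

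With KPH2 1 added, none of the 20 tested Hox genes passed an adjusted p of 0.05 in edgeR, where 0.00675% of all 14805 genes did, and DESeq2 called Hoxa9 and Hoxa10 (2.96% of all genes with a DESeq2 p-value). At an unadjusted p under 0.05 there were 4 of 20 (14.7% of all genes), Hoxa9, Hoxa10, Hoxd8 and Hoxd9. Groups did not overlap for Hoxa9 and Hoxa10 (8.15% of all genes). The tested Hoxa genes now held Hoxa3 in place of Hoxa6. Over the 6 Hoxa genes tested in both comparisons the median was 0.83 with 5 positive, against 1.03 with 6 positive for 7 tumours, and it was −1.34 for the 3 Hoxd genes, all negative, beside 0.01 for all tested genes with KPH2 1. The comparison shares the other 7 tumours with the main one.

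The other genes of the Hox pathway were taken from 4 lists with 70 genes, of which 64 were matched in the counts and 39 tested, and 1 rose and 3 fell at an adjusted p of 0.05 (1.24% of all genes rose and 0.72% fell, edgeR). With KPH2 1 added none of the 4 passed. Of the TALE cofactors 10 of 11 were tested and none passed the threshold. Tgif1, a TALE repressor, had a log2 fold change of 0.15 (SE 0.37, adjusted p = 0.879, edgeR). Of the noncoding RNAs and Evx genes of the clusters 16 of 22 were matched, 4 tested and none called, and 6 had no count in any tumour. The antisense RNA Hoxd3os1, named after its values were seen, had 0.699 to 1.83 CPM in KP tumours, 0.201 to 0.675 CPM in KPH2 2, 3 and 4 and 0.470 CPM in KPH2 1 (log2 fold change −1.83, SE 0.57, adjusted p = 0.145, edgeR).

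Among the upstream regulators, which set or maintain Hox transcription, 15 of 22 were tested and 1 rose. Rara, a nuclear receptor for retinoic acid, which switches on early Hox genes in the embryo, was at 29.3, 20.8, 28.7 and 24.2 CPM in KP tumours and at 49.4, 60.9 and 41.2 CPM in KPH2 2, 3 and 4. KPH2 1, at 23.3 CPM, lay among the KP tumours. The log2 fold change was 0.96 (SE 0.19, adjusted p = 0.0490, edgeR), and the adjusted p was from 0.0515 to 0.137 with any 1 of the 7 tumours left out. Cyp26b1, which degrades retinoic acid in the limb bud and was named after its values were seen, was at 3.81 to 7.83 CPM in KP tumours, 1.69 to 2.65 CPM in KPH2 2, 3 and 4 and 1.18 CPM in KPH2 1 (log2 fold change −1.32, SE 0.38, adjusted p = 0.119, edgeR; 0.0390, DESeq2). Kmt2a, the histone methyltransferase that maintains Hox transcription, and Gli3, a transcription factor of limb patterning, had the highest CPM of the list and log2 fold changes of −0.04 and 0.09 (SE 0.21 and 0.21, adjusted p = 0.951 and 0.876, edgeR).

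Among the limb position genes 10 of 15 were tested and 3 fell. Emx2, a homeobox gene of the shoulder and hip girdle, was at 9.57, 9.36, 7.15 and 13.7 CPM in KP tumours and at 0.0914, 0.301 and 1.01 CPM in KPH2 2, 3 and 4, with 5.95 CPM in KPH2 1 (log2 fold change −4.44, SE 0.62, adjusted p = 0.0191, edgeR). All 4 KPH2 tumours were below all KP tumours. Tbx15, which acts in the limb skeleton and in muscle fibres, was at 69.4, 90.8, 97.3 and 157 CPM in KP tumours, 28.2, 31.1 and 20.9 CPM in KPH2 2, 3 and 4 and 128 CPM in KPH2 1 (log2 fold change −1.96, SE 0.29, adjusted p = 0.0228, edgeR). Its adjusted p was 0.0562 without KP 7, 0.0869 without KPH2 2 and 0.0586 without KPH2 4 (edgeR). Shox2, which patterns the proximal limb, was at 10.4, 5.17, 19.5 and 4.66 CPM in KP tumours, 0.914, 1.51 and 1.24 CPM in KPH2 2, 3 and 4 and 14.7 CPM in KPH2 1 (log2 fold change −3.03, SE 0.60, adjusted p = 0.0469, edgeR). For Shox2 the adjusted p stayed under 0.05 in 1 of the 7 fits with a tumour left out. Zfhx4, with the highest CPM of the list, had a log2 fold change of −0.54 (SE 0.24, adjusted p = 0.294, edgeR).

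The hind limb origin was compared with its markers. Tbx5, the forelimb gene, had 1 count in all 8 tumours together. Pitx1, which gives the hind limb its identity, was uneven, with 8.59, 1.40, 1.90 and 0.153 CPM in KP tumours, 0.0914, 0.201 and 0 CPM in KPH2 2, 3 and 4 and 6.97 CPM in KPH2 1 (log2 fold change −4.79, SE 1.47, adjusted p = 0.144, edgeR; 0.00569, DESeq2). Tbx4, its partner in the hind limb, was at 4.71, 0.140, 0.292 and 0.229 CPM in KP tumours, 4.94, 5.32 and 0.225 CPM in KPH2 2, 3 and 4 and 15.4 CPM in KPH2 1. Both genes were thus near 0 in some tumours of each group.

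**Figure D5:**
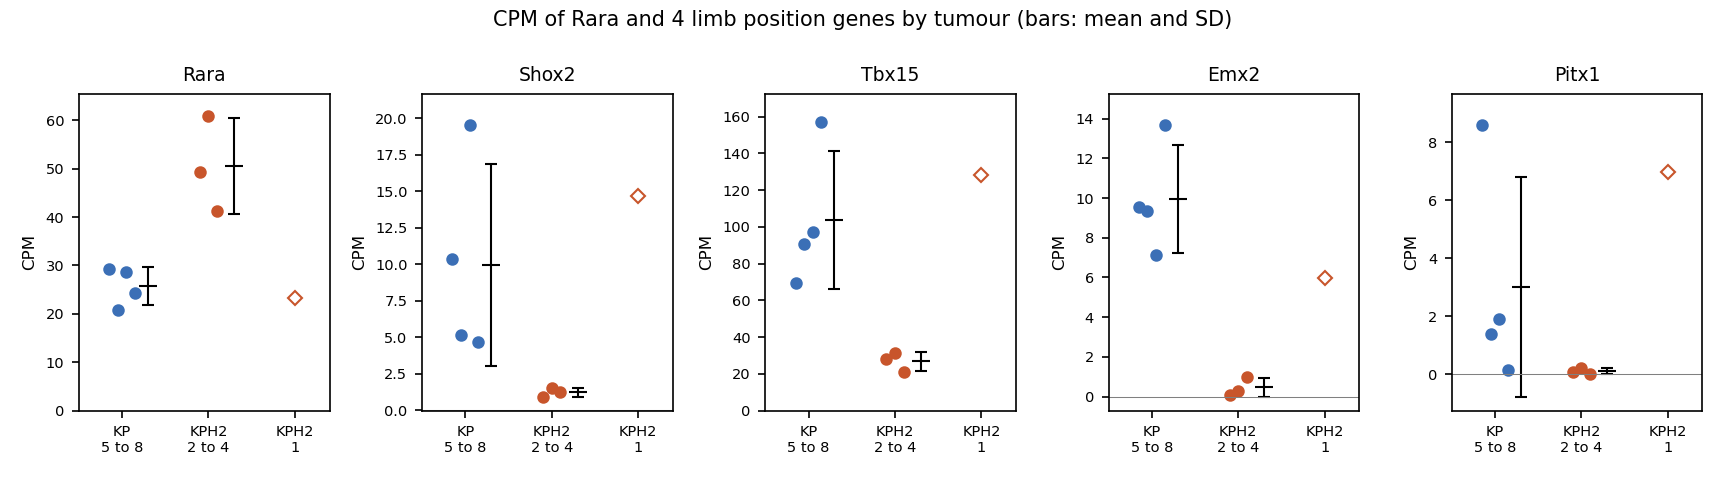
CPM of Rara, Shox2, Tbx15, Emx2 and Pitx1 in each tumour, with filled circles for KP and for KPH2 2, 3 and 4, an open diamond for KPH2 1, and bars for mean and SD of the filled circles. For the first 4 genes KPH2 2, 3 and 4 lie apart from all KP tumours, and KPH2 1 lies within the KP range except for Emx2, where it is between, at 5.95 CPM.

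The summed levels of muscle and epithelial markers did not overlap between KP tumours and KPH2 2, 3 and 4, and those of mesenchymal and macrophage markers did. Myod1, a regulator of muscle progenitors, ran from 0.146 to 4.61 CPM in KP tumours and from 9.11 to 36.9 CPM in KPH2 2, 3 and 4, with 0.157 CPM in KPH2 1. In a fit with the score of the muscle markers as covariate the medians over the 7 tumours were 1.35 for the Hoxa and −1.74 for the Hoxd genes, and no Hox gene passed an adjusted p of 0.05 (edgeR), where 0.0202% of all tested genes did. Of 12 mesenchymal markers 10 had lower fitted values in KPH2 2, 3 and 4, with a summed level of 14949 to 26098 CPM in KP and 10745 to 18609.8 CPM in these KPH2 tumours, and Pdgfra fell (log2 fold change −2.02, SE 0.27, adjusted p = 0.0183, edgeR). The 6 epithelial markers summed to 3.79 to 7.02 CPM in KP, 50.3 to 522 CPM in KPH2 2, 3 and 4 and 57.2 CPM in KPH2 1, and Krt8 and Krt18 passed an adjusted p of 0.05 as higher (edgeR) while Krt5 and Krt14 were at 0. The 6 macrophage markers all had lower fitted values, with none called, and summed to 1560.1 to 2815 CPM in KP and 1233 to 1733 CPM in KPH2 2, 3 and 4. Because the summed muscle markers did not overlap between the groups, the fit with their score cannot separate muscle content from genotype. The part of the mesenchymal, epithelial and macrophage markers in the Hox values was not tested.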

How the data were processed

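RNA was extracted from formalin-fixed, paraffin-embedded tumour sections, and stranded libraries depleted of ribosomal RNA were sequenced. The authors deposited raw counts per gene, made with STAR 2.4 and HTSeq 0.6.1 on GRCm38, as named in the submitters' processing notes, and their methods state that unique alignments to RefSeq genes were counted. The authors also deposited log2 values from the regularized log (rlog) of DESeq2 1.6, for 7 and for 8 tumours. These shrink genes with low counts, and were used in an alternative only.

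Differential expression was tested with edgeR 4.0.16 under R 4.3.3 (TMM scaling, low-count filter with minimum count 10 and minimum total 15, robust quasi-likelihood test), and adjusted over all tested genes at 0.05. Total counts per tumour ran from 6463221 to 13155510, and intervals and floors cover counting error only. Exact permutation tests covered the 35 splits of 7 tumours or 70 of 8 (scipy 1.17.1). Exon lengths came from GENCODE M21 transcripts paired with RefSeq accessions and matched all 39 genes, which share 0 exonic bases with each other. Some older symbols were matched through RefSeq synonyms, such as Mll1 for Kmt2a, Hoxa11as for Hoxa11os and 1700109F18Rik for Hoxd3os1. The scripts were tested on simulated data.

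The members, gene lists and tests were chosen with earlier results of these data known. Genes named are the Hox genes past the adjusted threshold, the 3 of each cluster with the highest level per length, up to 5 in each direction with the smallest p among those whose groups do not overlap, and, in the other lists, the genes past the threshold and the 2 with the highest CPM. Some items under this rule are not reported here. Alternatives were all 8 tumours, other scalings and filters, leaving out each tumour, a muscle marker covariate, edgeR without robust estimates, DESeq2 1.42.0 and limma 3.58.1 on the rlog values. DESeq2 and limma over 8 tumours, leaving out each of the 8, and the counts without Rn45s and Lars2 were added after seeing the data.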

Additional observations from a re-analysis of the deposited data

Results flagged for a closer look

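The levels of the Hox and partner genes described above and the cluster sums gave 70 groups of 4 tumours, of which 11 had a tumour set apart from the rest by more than Dixon's 95% critical value. Chance gives about 1 such case in 20 groups, and the values examined share tumours. Of the 8 cases among KPH2 tumours KPH2 1 was the tumour set apart in all but Hoxc13, where it was KPH2 4. Hoxa6 stood at 0 CPM in KPH2 1 and at 1.46 to 1.61 CPM in the other KPH2 tumours. Hoxd4 stood at 5.80 CPM in KPH2 1 and at 1.51 to 1.69 CPM in the others. Hoxc5 stood at 12.6 CPM in KPH2 1 and at 6.52 to 6.86 CPM in the others. The Hoxd cluster summed to 16.5 CPM in KPH2 1 and to 5.02 to 6.97 CPM in the others. Hoxc13 stood at 4.72 CPM in KPH2 4 and at 0.313 to 0.640 CPM in the others. Among the limb position genes Shox2 was at 14.7 CPM, Tbx15 at 128 CPM and Emx2 at 5.95 CPM in KPH2 1, and at no more than 1.51, 31.1 and 1.01 CPM in the others. In KP tumours Hoxc4 stood at 5.53 CPM in KP 5 and at 1.26 to 1.604 CPM in the others. Gli3 stood at 186 CPM in KP 5 and at 115 to 120.2 CPM in the others. Hoxa11os stood at 3.49 CPM in KP 6 and at 0 to 0.437 CPM in the others.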

How the results depend on the processing

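No paired analysis was possible because the KP and KPH2 tumours share no replicate numbers. The 1 Hox gene called became 0 with all 8 tumours, with genes of a mean count of at least 50 only, with the muscle marker score as covariate and with limma on rlog values of 8 tumours, 5 with DESeq2 and 2 with DESeq2 over all 8, and ran from 0 to 2 with a tumour left out (0 without KP 7, KPH2 2, KPH2 3 or KPH2 4, and 2 without KP 6). Calls over all genes moved too, from 292 to 1, 215, 3 and 19 in the first 4 of these settings, to 1175 and 648 with DESeq2 over 7 and 8 tumours, and to between 55 and 349 with a tumour left out. Over all 8 tumours the 0 called became 2 with DESeq2, and ran from 0 to 1 with a tumour left out, the 1 being without KPH2 1. The 4 called partner genes became 0, 2, 0 and 0 in the same first 4 settings, 6 with DESeq2, which added Cyp26b1 and Pitx1, and 1 with DESeq2 over all 8, and ran from 1 to 3 with a tumour left out. The median log2 fold change of the Hox genes, 0.10, was 0.21 with all 8 tumours, −0.20 without the filter, −0.054 with the covariate, −0.20 with DESeq2 for 7 and for 8 tumours, and 0.076 to 0.36 with a tumour left out. The filter settings and DESeq2 test other numbers of genes. The Hoxa median was 0.47 and 0.40 with limma on rlog values of 7 and 8 tumours, the Hoxd median −0.63 and −0.67, and −1.12 with DESeq2 over 8, and the Hoxb median −0.00104 with the covariate. The rlog values are shrunk by construction, and the cause of the other shifts was not tested. The cluster sums stayed within the spread between tumours in all 11 alternatives each. Those of Hoxa, Hoxb and Hoxd kept their direction, while the Hoxc log2 ratio of −0.032 became 0.069 with all 8 tumours and ran from −0.19 to 0.14 with a tumour left out.

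Of 445 single-gene values under alternatives 382 kept direction and side of the threshold, 41 lost the call, 7 gained it and 15 changed sign. With the covariate these were Hoxb4 (0.61), Hoxc10 (−0.23), Kmt2a (0.29) and Gli3 (−0.17). With a tumour left out, Hoxc10 ran from −0.045 (without KPH2 2) to 0.50, Tgif1 from −0.13 (without KPH2 2, and negative without KP 5) to 0.46, Hotair from −0.22 (without KPH2 3, and negative without KP 5) to 0.53, Kmt2a from −0.17 to 0.13 (without KP 7, and positive without KPH2 2) and Gli3 from −0.033 (without KPH2 3) to 0.28. Kmt2a was 0.046 with all 8 tumours, 0.049 with DESeq2 over 8 and 0.060 with limma over 8. None of these genes passed the threshold. The 19 Hox genes not tested were left out by the low-count filter. Without the filter 37 Hox genes were tested, and Hoxa7 and Hoxd3 had log2 fold changes of 2.01 and −2.69 (adjusted p = 0.213 and 0.195, edgeR).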
